A study of Homo sapiens with 24 samples.

Results

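The 39 genes described here govern ferroptosis, the iron-dependent death of cells by peroxidation of membrane lipids. They were taken from a list of gene symbols that was chosen with earlier results of these data known. The symbols were matched to the 61860 Ensembl identifiers of the count tables. Of the 39 genes, 23 are held to protect cells (defence members), and 15 are held to promote lipid peroxidation or its supply of iron and lipid (promoting members). HMOX1, the enzyme that breaks heme down and frees its iron, is held to do both. All 39 were found in the 4 experiments, which comprised 24 RNA-seq libraries of OE33 cells, a human line of esophageal adenocarcinoma, with 3 libraries in each of 8 groups. In the HFD and ND groups, OE33 cells had grown for 21 days under the skin of male BALB/c-nu mice, hosts that lack T cells. The mice were bought at 4 weeks of age and kept on a high-fat or normal diet for 8 weeks before injection. Each diet was continued after injection. The methods also name a body weight for HFD mice to exceed, set from the ND group. In culture, cells received a plasmid for HA-tagged TRIM15 (HA-TRIM15) or the empty vector (EV) for 48 h, a short hairpin RNA against YY2 (shYY2) or shControl for 72 h, or a hairpin against FOXRED1 (shFOXRED1) or its own shControl for 72 h. Which hairpin sequence was used for each knockdown library, and whether libraries came from separate animals or cultures, is not stated in the sources used here, so p-values measure the spread between these libraries, which may be technical.

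In ferroptosis, iron drives the peroxidation of polyunsaturated phospholipids. SLC7A11 and SLC3A2 together form system xc-, which imports cystine for glutathione synthesis, and GPX4 spends glutathione to reduce lipid peroxides. AIFM2 (FSP1), DHODH and GCH1 restrain peroxidation without GPX4, ferritin (FTH1 and FTL) stores iron, TFRC brings it into the cell, and ACSL4 and LPCAT3 place polyunsaturated acyl chains in membranes. NFE2L2 (NRF2) is a transcription factor held down by KEAP1 that drives many of the glutathione and thioredoxin genes. The comparisons address how diet, TRIM15, YY2 and FOXRED1 bear on the transcripts of these genes.

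Libraries held between 14299807 and 45994561 counts. The targets moved as labelled. TRIM15 had 111 to 181 counts with HA-TRIM15 and 0 in each EV library, and YY2 had 11 to 12 counts with shYY2 and 40 to 46 in its controls. FOXRED1 fell by 0.78 on the log2 scale with shFOXRED1 (SE 0.11, edgeR adjusted p = 4.06e-05). It was also lower with shYY2 (-0.89 log2, SE 0.06, edgeR adjusted p = 3.31e-09) and with HA-TRIM15 (-0.24 log2, SE 0.05, edgeR adjusted p = 0.00509). In the xenografts it was not called (-0.06 log2, edgeR adjusted p = 0.414). Levels are given as CPM, read counts scaled to a common library size. Summed epithelial markers were at 14678 to 15194 CPM with shYY2 against 10783 to 11495, and at 12406 to 12566 CPM with HFD against 11444 to 11680. These sums overlapped between groups in the other 2 experiments. KRT19 made most of the sum, and the markers did not move together. With shYY2, KRT19, EPCAM and CLDN4 were higher, while KRT8 (-0.64 log2), KRT18 (-0.31) and CDH1 (-0.23) were lower. With HFD, KRT8, KRT18 and CLDN4 were higher, CDH1 was lower (-0.31 log2), and EPCAM and KRT19 were not called. With HA-TRIM15, KRT8 (-0.13 log2) and KRT18 (-0.17) were lower, CDH1 (0.23) and CLDN4 (0.19) were higher, and EPCAM and KRT19 were not called. With shFOXRED1, KRT8 (-0.21 log2) and KRT18 (-0.25) were lower, CLDN4 (0.39) was higher, and EPCAM, KRT19 and CDH1 were not called. Summed endothelial, macrophage and erythroid markers reached at most 10.9 CPM in any library, with the erythroid sum at 1.28 to 1.74 CPM with shYY2 against 0.202 to 0.532. The summed fibroblast list, of which COL1A1 made nearly all, moved with the groups: 42.4 to 43.9 CPM with shYY2 against 10.5 to 11.2, 38.4 to 41.8 CPM with shFOXRED1 against 24.2 to 25.5, and 23.7 to 27.0 CPM with HFD against 30.5 to 33.5. With HA-TRIM15 the sum was at 11.1 to 11.9 CPM against 12.0 to 13.3 with EV, where COL1A1 itself was not called (-0.04 log2). The part of these markers in the results was not tested. In the bulk xenografts, fewer cells of a type and less RNA per cell cannot be told apart. The markers counted are human genes, while the host cells there are of the mouse. How mouse reads were handled is not given, so low sums in the xenografts cannot measure host cells. The cultures were of OE33 cells only. There, COL1A2, COL3A1, DCN and LUM each averaged at most 0.052 CPM with shYY2 and in its controls. With HA-TRIM15 against EV, COL1A2 averaged 0.084 against 0.62 CPM and COL3A1 0.14 against 0.35 CPM. The hemoglobin gene HBB averaged 3.64 against 6.65 CPM and was not called, and HBA1 1.16 against 1.19 CPM. The source of these reads was not tested.

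Of the 38 members tested in at least 1 experiment, 7 passed the test in all 4 (18.4%, against 5.56% of all genes so tested), 15 in 3 (39.5% against 19.5%), 10 in 2 (26.3% against 28.9%) and 4 in 1 (10.5% against 28.7%). No member moved in 1 direction in all 4 experiments (0.716% of all genes did), and 25 rose in at least 1 and fell in at least 1 other (65.8% against 32.8%). The shares of all genes include genes tested in fewer than 4 experiments, which could not pass in all 4. Because the members were chosen with earlier results of these data known, the shares are a description only. ALOX15, a lipoxygenase, was too low to be tested in any experiment, and SLC40A1 (ferroportin, the iron exporter) was tested in the xenografts and with shFOXRED1 only. LPCAT3 and PCBP1, an iron chaperone, were tested throughout and passed in none. Of their exon bases, 65.6% and 52.2% lie in other genes, chiefly EMG1 and PCBP1-AS1 on the opposite strand. Whether counting used strand is not given, so reads of these genes may be shared. A call here is an adjusted p under 0.05 in edgeR's quasi-likelihood test over all genes tested, with no minimum fold.

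**Figure D1:**
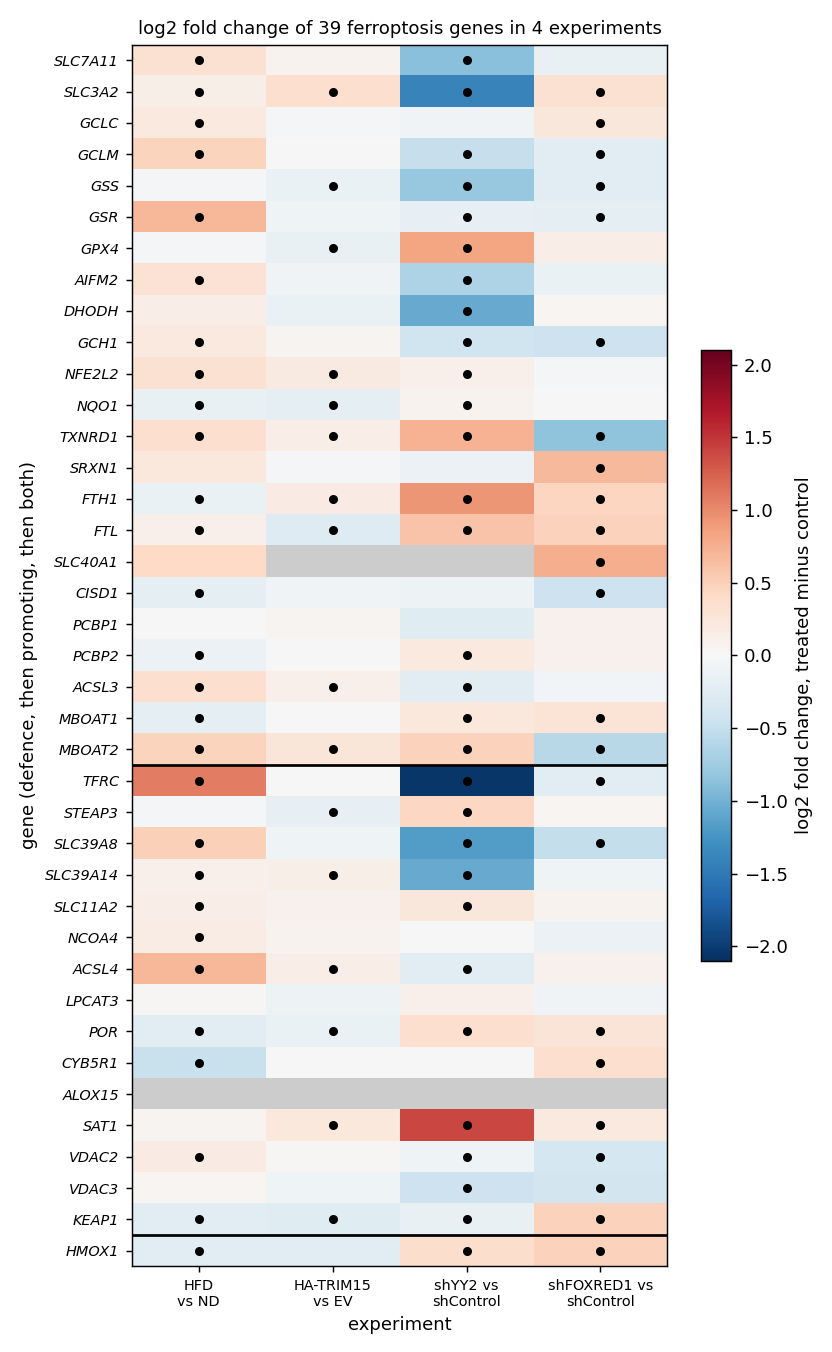
Log2 fold change (treated minus control, colour) of the 39 genes (rows; defence members, then promoting members, then HMOX1) in the 4 experiments (columns), with a dot where the edgeR test called the gene and grey where it was not tested. The columns differ in colour for most genes, with TFRC at 1.08 in the xenografts and -2.05 with shYY2.

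The letters TGACNNNGC, the core of the antioxidant response element that NRF2 binds, were sought on both strands of the promoter windows from RefSeq (250 bases before to 50 after each start, build GRCh38.p14). Of the 39 members, 27 had at least 1 window, 41 windows in all. The core was in 8 of these 41 windows (19.5%), of 7 genes, and in 13.3% of all 35116 windows. The E-box CACGTG was in 4 of the 41 (9.76%, against 7.26%), of CISD1, VDAC2, SLC39A8 and DHODH, and the YY core AANATGGC in 1 (2.44%, against 6.58%), of NCOA4. A match is a description of the letters and not a site. The 110 bases before the start are printed for the members with the core there, in lower case with the core (or its reverse complement) in capitals, because these members took different directions in the results that follow. They were chosen after the matches were seen.
GCLM, chr1:93909431-93909540, minus strand: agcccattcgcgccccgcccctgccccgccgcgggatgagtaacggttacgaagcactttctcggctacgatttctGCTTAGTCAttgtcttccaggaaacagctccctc
AIFM2, chr10:70132826-70132935, minus strand: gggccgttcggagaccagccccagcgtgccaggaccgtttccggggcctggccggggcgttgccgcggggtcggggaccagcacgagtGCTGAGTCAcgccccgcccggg
SLC3A2, chr11:62881589-62881698, plus strand: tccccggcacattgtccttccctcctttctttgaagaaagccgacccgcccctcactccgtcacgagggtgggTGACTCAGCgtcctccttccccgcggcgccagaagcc
TXNRD1, first start, chr12:104215669-104215778, plus strand: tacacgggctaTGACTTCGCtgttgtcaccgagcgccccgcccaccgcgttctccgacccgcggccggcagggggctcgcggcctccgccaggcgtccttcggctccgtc
TXNRD1, second start, chr12:104286922-104287031, plus strand: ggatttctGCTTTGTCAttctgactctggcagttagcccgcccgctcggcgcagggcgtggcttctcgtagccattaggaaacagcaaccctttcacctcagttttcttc
KEAP1, chr19:10502772-10502881, minus strand: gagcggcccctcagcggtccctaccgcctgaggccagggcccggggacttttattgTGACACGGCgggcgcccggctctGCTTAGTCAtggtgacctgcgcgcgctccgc

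In the xenografts, TFRC, GSR and ACSL4 rose most among the members on the high-fat diet. Of 38 members tested, 19 were higher (25.6% of all genes tested were called higher) and 9 were lower (23.9% of all genes were called lower). Among the 23 defence members 12 rose and 5 fell (median 0.21 log2), and among the 14 promoting members tested 7 rose and 3 fell (median 0.08 log2), where the median of all genes was -0.01 log2. The values of HFD and ND libraries did not overlap for 27 of the 38 members, and for 56.2% of all genes tested.

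SLC7A11, the transport subunit of system xc-, stood at 146, 146 and 153 CPM in the HFD xenografts and at 118, 121 and 118 CPM in the ND xenografts. All HFD libraries lay above all ND libraries, a log2 fold change of 0.32 (SE 0.04, edgeR adjusted p = 1.5e-06). SLC3A2, the heavy chain that carries SLC7A11 to the membrane, measured 357, 356 and 344 CPM against 312, 329 and 323 CPM, again without overlap (0.13 log2, SE 0.03, edgeR adjusted p = 0.00537). GPX4 measured 209, 221 and 203 CPM with HFD and 217, 215 and 209 CPM with ND, and the groups overlapped. Its log2 fold change of -0.02 did not pass (95% confidence interval -0.10 to 0.06, edgeR adjusted p = 0.697).

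Glutathione reductase (GSR), which returns oxidised glutathione to its reduced form, had the largest change of the defence members in the xenografts. It stood at 222, 205 and 214 CPM on HFD and at 129, 132 and 132 CPM on ND (0.70 log2, SE 0.04, edgeR adjusted p = 2.5e-10). GCLM, the modifier subunit of glutamate-cysteine ligase, rose from 52.4, 52.2 and 53.5 CPM to 71.4, 74.2 and 72.7 CPM (0.47 log2). MBOAT2, which loads monounsaturated chains into phospholipids, was at 259, 267 and 258 CPM against 193, 186 and 186 CPM (0.47 log2). ACSL3, which activates monounsaturated fatty acids, was at 167, 171 and 163 CPM against 135, 127 and 130 CPM (0.35 log2). None of these groups overlapped.

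TFRC, the transferrin receptor, had the largest change of all members in the xenografts: 375, 374 and 358 CPM on HFD against 182, 168 and 175 CPM on ND, a 2.11-fold rise (1.08 log2, SE 0.04, edgeR adjusted p = 2.33e-12). ACSL4, which activates polyunsaturated fatty acids, was at 133, 131 and 128 CPM against 81.1, 77.9 and 83.8 CPM (0.69 log2). SLC39A8, a zinc and iron importer, was at 20.3, 21.8 and 20.7 CPM against 15.5, 14.9 and 14.1 CPM (0.49 log2). CYB5R1, a reductase that feeds lipid peroxidation, went the other way, at 31.97, 31.2 and 29.1 CPM against 44.4, 41.2 and 41.7 CPM (-0.47 log2). Of all genes tested here, 25.6% were called higher and 23.9% lower. By role, 5 of 6 genes of cystine import and glutathione synthesis rose and none fell, and 5 of 6 genes of iron entry and release rose and none fell. Among these, the rises of SLC3A2, SLC11A2, NCOA4 and SLC39A14 were small (0.13, 0.14, 0.15 and 0.11 log2). Of the 6 genes of iron storage, export and handling, 3 fell while 1 rose. Each of these 4 calls was lost in at least 1 fit without a library: FTH1 without HFD replicate 1 or 2 or ND replicate 3, CISD1 without HFD replicate 3, PCBP2 without HFD replicate 1 or 2 or ND replicate 1 or 3, and FTL without HFD replicate 1 or 2 or ND replicate 1, with highest edgeR adjusted p of 0.105, 0.0581, 0.109 and 0.132. The iron entry gene SLC39A14 lost its call without HFD replicate 1 or 3 or ND replicate 3 (highest edgeR adjusted p = 0.138).

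With HA-TRIM15, changes were small, and no called member moved by as much as 1.5-fold. Of 37 members tested, 9 were higher (12.5% of all genes were called higher) and 7 were lower (9.53% of all genes were called lower). The medians of defence and promoting members, -0.01 and -0.0004 log2, lay beside that of all genes, -0.01, and groups did not overlap for 23 of the 37 members, and for 37.7% of all genes tested.

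SLC3A2 had the largest change of the members with HA-TRIM15, at 473, 434 and 423 CPM against 352, 349 and 346 CPM with EV. The groups did not overlap (0.35 log2, SE 0.04, edgeR adjusted p = 1.64e-05). Its partner SLC7A11 stood at 193, 210 and 209 CPM against 200, 192 and 191 CPM, with overlap. Its log2 fold change of 0.07 did not pass (95% confidence interval -0.01 to 0.15, edgeR adjusted p = 0.22), although without HA-TRIM15 replicate 1 it was 0.11 and passed (edgeR adjusted p = 0.00772). GPX4 was at 164, 139 and 138 CPM against 163, 168 and 163 CPM, where HA-TRIM15 replicate 1 lay among the EV libraries. It was called lower (-0.16 log2, SE 0.05, edgeR adjusted p = 0.0406), and that call was lost without HA-TRIM15 replicate 2 or 3 or without EV replicate 1, 2 or 3, with edgeR adjusted p from 0.0865 to 0.169.

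FTL, the light chain of ferritin, fell with HA-TRIM15 from 1068, 1065 and 1038 CPM to 938, 860 and 815 CPM (-0.28 log2, SE 0.04, edgeR adjusted p = 0.000229). The heavy chain FTH1 was higher, at 819, 865 and 832 CPM against 762, 772 and 710 CPM (0.17 log2, edgeR adjusted p = 0.00356). MBOAT2 was at 243, 264 and 264 CPM against 210, 220 and 219 CPM (0.25 log2). NFE2L2 was at 178, 188 and 192 CPM against 161, 165 and 161 CPM (0.20 log2), and its repressor KEAP1 was at 69.9, 58.6 and 60.0 CPM against 74.9, 75.4 and 75.4 CPM (-0.25 log2). These groups did not overlap.

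Of the promoting members, SAT1, a polyamine acetyltransferase, rose with HA-TRIM15 from 612, 626 and 592 CPM to 692, 724 and 727 CPM (0.23 log2, edgeR adjusted p = 0.000153). STEAP3, which reduces iron in endosomes, was at 73.3, 74.0 and 71.7 CPM against 82.8, 81.1 and 82.9 CPM (-0.17 log2). ACSL4 was at 102, 105 and 114 CPM against 92.4, 96.2 and 101 CPM (0.14 log2, edgeR adjusted p = 0.0395), a call that was lost without HA-TRIM15 replicate 2 or 3 or EV replicate 1 or 2 (edgeR adjusted p from 0.0729 to 0.183).

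**Figure D2:**
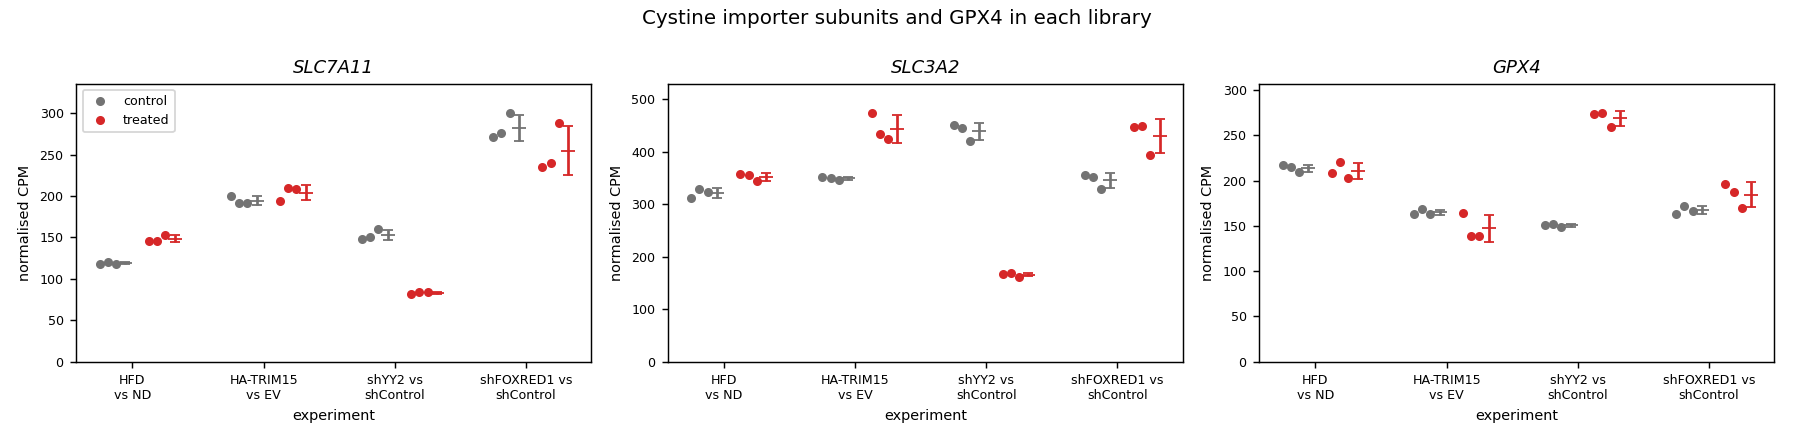
Normalised CPM of SLC7A11, SLC3A2 and GPX4 (panels) in each library (points) of the 4 experiments, control in grey and treated in red, with the mean and SD of 3 libraries beside them. With shYY2 the SLC3A2 libraries stand at 162 to 168 CPM against 420 to 451 CPM in controls, and GPX4 at 259 to 274 CPM against 149 to 152 CPM.

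Knockdown of YY2 went with the widest changes of the 4 experiments, among members and among all genes alike. The median absolute log2 fold change was 0.38 over members and 0.47 over all genes. Of 37 members tested, 14 were higher (36.8% of all genes were called higher) and 16 were lower (38.1% of all genes were called lower). Among defence members 9 rose and 9 fell (median -0.12 log2), among promoting members 4 rose and 7 fell (median -0.05 log2), and HMOX1 rose. By role, all 3 genes of GPX4-independent radical trapping fell, 5 of 6 of cystine import and glutathione synthesis fell and none rose, while GPX4 and both ferritin chains rose. Groups did not overlap for 30 of the 37 members, and for 76.3% of all genes tested.

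SLC3A2 was at 168, 168 and 162 CPM with shYY2 and at 451, 445 and 420 CPM in controls, 2.65-fold lower (-1.40 log2, SE 0.03, edgeR adjusted p = 7.29e-15). SLC7A11 was at 81.2, 83.6 and 83.8 CPM against 148, 150 and 160 CPM, 1.85-fold lower (-0.88 log2, SE 0.04, edgeR adjusted p = 2.88e-12). GPX4 went up, at 273, 274 and 259 CPM against 151, 152 and 149 CPM, 1.78-fold higher (0.83 log2, SE 0.03, edgeR adjusted p = 1.21e-12). In all 3 genes every shYY2 library lay on the same side of every control library.

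DHODH, a mitochondrial enzyme that reduces ubiquinone, was at 6.82, 7.20 and 5.84 CPM with shYY2 against 15.0, 14.9 and 11.4 CPM (-1.06 log2, SE 0.12, edgeR adjusted p = 8.89e-07). FTH1 was at 2943, 3126 and 3148 CPM against 1696, 1629 and 1546 CPM (0.92 log2, SE 0.03, edgeR adjusted p = 9.1e-13), and FTL rose by 0.60 log2. Of the exons of FTH1, 62.4% of bases overlap BEST1 on the opposite strand, and whether counting used strand is not given in the sources used here. Among the other defence members GSS, glutathione synthetase, was at -0.79 log2, AIFM2 at -0.64 and TXNRD1, thioredoxin reductase, at 0.72.

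TFRC fell to 136, 136 and 139 CPM with shYY2 from 563, 557 and 579 CPM in controls, 4.14-fold (-2.05 log2, SE 0.03, edgeR adjusted p = 4.35e-17). SLC39A8 was at 8.70, 9.54 and 9.90 CPM against 21.9, 19.8 and 21.9 CPM (-1.18 log2), and SLC39A14, a related importer, was at 100, 96.3 and 95.5 CPM against 207, 197 and 205 CPM (-1.06 log2). SAT1 had the largest rise of the members, at 2609, 2629 and 2591 CPM against 988, 960 and 1000 CPM (1.41 log2, SE 0.02, edgeR adjusted p = 2.85e-16). None of these groups overlapped.

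**Figure D3:**
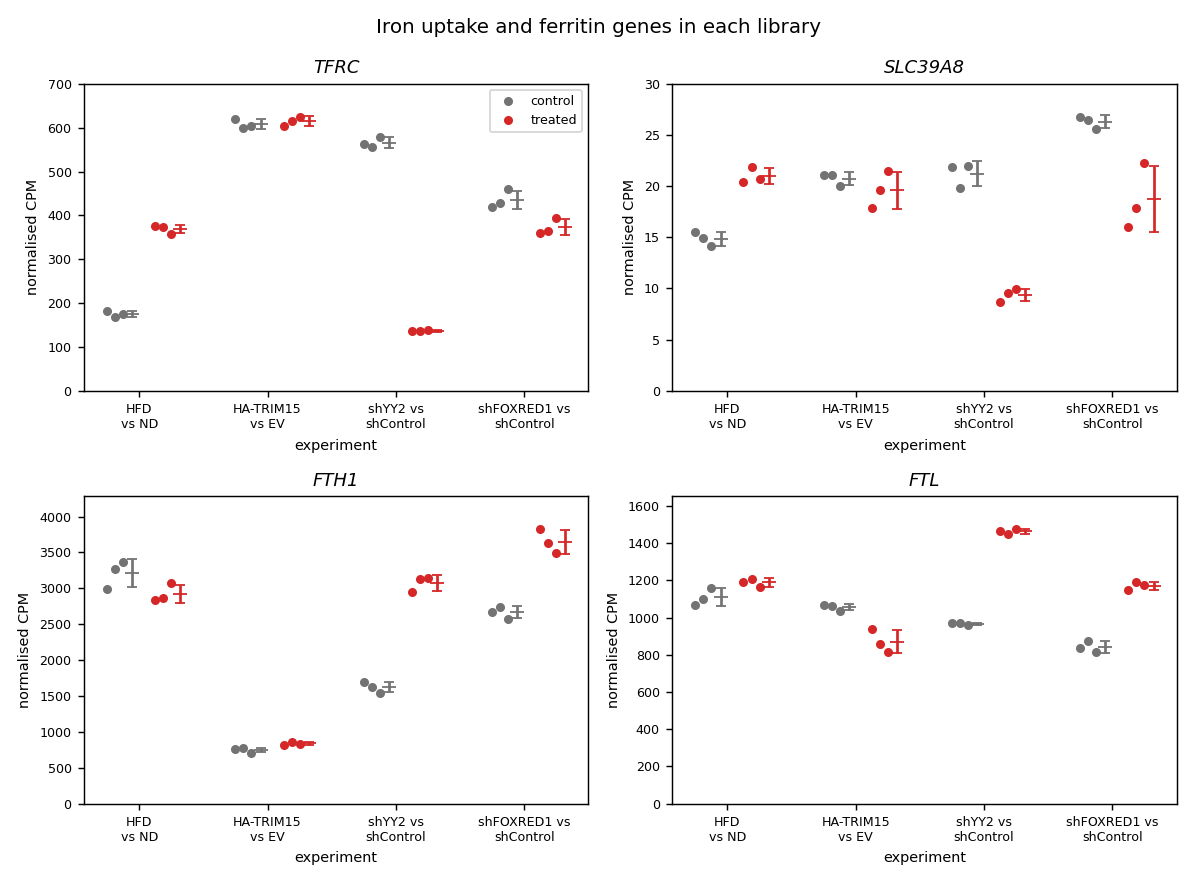
Normalised CPM of the iron importers TFRC and SLC39A8 and the ferritin chains FTH1 and FTL (panels) in each library of the 4 experiments, control in grey and treated in red, with mean and SD of 3 libraries. With shYY2, TFRC lies at 136 to 139 CPM against 557 to 579 CPM while FTH1 lies at 2943 to 3148 CPM against 1546 to 1696 CPM.

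With shFOXRED1, 12 of 38 members tested were higher (16.8% of all genes were called higher) and 11 were lower (19.7% of all genes were called lower). Defence members divided 7 higher and 7 lower (median -0.02 log2), promoting members 4 and 4 (median -0.01 log2), and HMOX1 rose. Groups did not overlap for 24 of the 38 members, and for 46.7% of all genes tested. Without shFOXRED1 replicate 3 the medians of defence and promoting members were -0.08 and -0.05 log2, and the promoting median ran from -0.05 to 0.008 over the left-out libraries.

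SLC3A2 was at 447, 448 and 393 CPM with shFOXRED1 against 356, 351 and 329 CPM, without overlap (0.31 log2, SE 0.06, edgeR adjusted p = 0.00033). SLC7A11 was at 235, 240 and 289 CPM against 271, 276 and 300 CPM, and shFOXRED1 replicate 3 lay among the controls (-0.15 log2, SE 0.07, edgeR adjusted p = 0.105). GPX4 was at 197, 188 and 169 CPM against 164, 172 and 166 CPM, and again shFOXRED1 replicate 3 lay among the controls (0.14 log2, SE 0.06, edgeR adjusted p = 0.0723). Both calls turn on the fit. With the replicate number as a block SLC7A11 was lower (-0.15 log2, edgeR adjusted p = 0.00206) and GPX4 was higher (0.14 log2, edgeR adjusted p = 0.0108), and without shFOXRED1 replicate 3 SLC7A11 was at -0.25 log2 (edgeR adjusted p = 3.02e-05) and GPX4 at 0.20 log2 (edgeR adjusted p = 0.000614).

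TXNRD1 had the largest change of the members with shFOXRED1, at 901, 930 and 949 CPM against 1640, 1647 and 1688 CPM (-0.84 log2, SE 0.04, edgeR adjusted p = 1.46e-10). MBOAT2 was at 109, 117 and 129 CPM against 178, 168 and 186 CPM (-0.58 log2, SE 0.07, edgeR adjusted p = 2.59e-06). FTH1 and FTL both rose, by 0.45 and 0.48 log2. SLC40A1 was low, at 3.88, 2.38 and 2.94 CPM against 2.20, 1.13 and 2.04 CPM (0.77 log2, SE 0.28, edgeR adjusted p = 0.0413), and its call was lost without shFOXRED1 replicate 1 or shControl replicate 2 or 3 (edgeR adjusted p from 0.0623 to 0.204). SRXN1, sulfiredoxin, was at 19.8, 17.7 and 12.1 CPM against 12.2, 9.42 and 9.51 CPM, with overlap (0.67 log2), and 85.0% of its exon bases lie in another gene on its strand.

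KEAP1 rose with shFOXRED1, at 77.9, 82.2 and 72.7 CPM against 56.9, 55.3 and 53.5 CPM (0.49 log2, SE 0.07, edgeR adjusted p = 1.98e-05). SLC39A8 was at 16.0, 17.9 and 22.3 CPM against 26.8, 26.5 and 25.6 CPM (-0.50 log2), and VDAC3, a channel of the outer mitochondrial membrane, was at 63.1, 62.2 and 63.9 CPM against 78.8, 86.3 and 80.9 CPM (-0.38 log2). HMOX1 was at 8.15, 9.25 and 6.84 CPM against 7.10, 5.77 and 4.42 CPM, with overlap (0.48 log2, edgeR adjusted p = 0.0395), and its call was lost without shFOXRED1 replicate 1 or 2 or shControl replicate 2 or 3 (edgeR adjusted p from 0.0798 to 0.182).

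**Figure D4:**
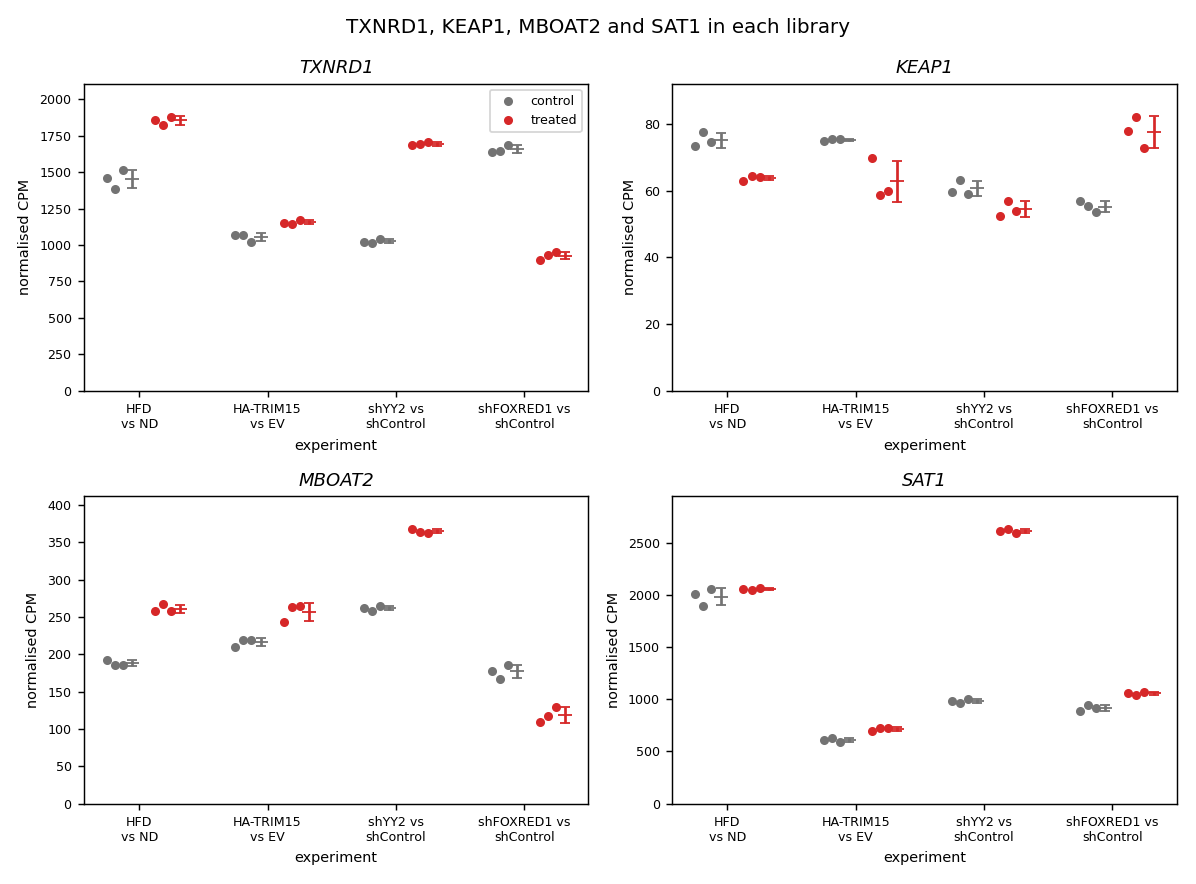
Normalised CPM of TXNRD1, KEAP1, MBOAT2 and SAT1 (panels) in each library of the 4 experiments, control in grey and treated in red, with mean and SD of 3 libraries. TXNRD1 lies at 1685 to 1706 CPM with shYY2 against 1016 to 1045 CPM, and at 901 to 949 CPM with shFOXRED1 against 1640 to 1688 CPM.

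Whether a member changed differently in 2 experiments was tested as the difference of their log2 fold changes, over 12 libraries that share no controls. Between the xenografts and HA-TRIM15, 23 of 38 members differed (35.2% of all genes did), among them TFRC by 1.09 (SE 0.05, edgeR adjusted p = 1.19e-12). Between HA-TRIM15 and shYY2, 27 of 37 differed (64.4% of all genes did). Between shYY2 and shFOXRED1, 26 of 38 differed (54.4% of all genes did). SLC3A2 differed in each: by -0.18 between the xenografts and HA-TRIM15, by 1.74 between HA-TRIM15 and shYY2, and by -1.72 between shYY2 and shFOXRED1 (largest edgeR adjusted p = 0.00947). GPX4 differed by -1.004 between HA-TRIM15 and shYY2 and by 0.69 between shYY2 and shFOXRED1, and its difference of 0.17 between the xenografts and HA-TRIM15 did not pass (edgeR adjusted p = 0.06).

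In 5 companion lists of 112 genes near these pathways, 39 of 99 tested rose and 20 fell in the xenografts (25.6% and 23.9% of all genes did). With HA-TRIM15, 14 of 96 rose and 20 fell (12.5% and 9.53% of all genes). With shYY2, 31 of 98 rose and 50 fell (36.8% and 38.1% of all genes), and with shFOXRED1 15 of 96 rose and 31 fell (16.8% and 19.7% of all genes). In the list of selenoprotein, coenzyme Q and tetrahydrobiopterin supply, 14 of 19 fell and 1 rose with shYY2, where 38.1% of all genes fell and 36.8% rose. PDSS1, which builds the coenzyme Q tail, was among those that fell (-2.996 log2). In the list of NRF2 targets and the thioredoxin system, 11 of 19 rose and 4 fell in the xenografts (25.6% and 23.9% of all genes), with PGD, an enzyme of the pentose phosphate pathway, at 0.59 log2 and ME1, malic enzyme, at 0.51. With HA-TRIM15, 1 of the same 19 rose (BACH1, a repressor of NRF2 targets, 0.39 log2) and 10 fell, where 12.5% of all genes rose and 9.53% fell.

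Other companion genes carried large changes. ATF3, a stress-induced transcription factor, was higher with HA-TRIM15 by 1.82 log2 (edgeR adjusted p = 2.07e-13), and HSPA5, a chaperone of the endoplasmic reticulum, rose there by 0.54 log2 and stood at -2.18 log2 with shYY2. SLC7A5, which pairs with SLC3A2 to import large amino acids, was at -1.73 log2 with shYY2. CYBRD1, an iron reductase, was at 0.88 log2 in the xenografts, 1.25 with shYY2 and -0.76 with shFOXRED1. MGST1, a microsomal glutathione transferase, was at 0.89 log2 in the xenografts, and CTH, the last enzyme of transsulfuration, was at 0.45 log2 with HA-TRIM15 and -0.77 with shFOXRED1.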

How the data were processed

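RNA was sequenced from OE33 xenografts and cultures as polyadenylated RNA. The authors deposited raw counts per gene, 1 table per experiment, without normalization; aligner, counter, annotation, strand setting and the handling of mouse reads are not given in the sources used here. The submitters' notes name the builds hg38 and mm10. In the HA-TRIM15 table the header has empty cells, so columns were taken by number. All value columns were used, and 99.8% of identifiers had a gene name.

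In R 4.3.3, edgeR 4.0.16 kept genes with filterByExpr (minimum count 10, minimum total 15), scaled by TMM and ran quasi-likelihood tests within each experiment, with Benjamini-Hochberg adjustment over all genes and a threshold of 0.05. Standard errors are the log2 fold change over the square root of F. CPM values are TMM-normalised. With 3 against 3 libraries an exact permutation test cannot go below 0.1. The scripts were tested on simulated counts. Exon overlap is from GENCODE 29.

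The members and lists were chosen with earlier results of these data known. Named are SLC7A11, SLC3A2, GPX4 and, per experiment, the 4 called defence and the 4 other called members with the largest change, with at most 2 genes per companion list and experiment. Other genes given with values (FTH1 and FTL where outside that rule, GSS, AIFM2 and TXNRD1 with shYY2, KEAP1) were added after their values were seen. Alternatives were DESeq2 1.42.0 size factors and Wald test, other count filters, a replicate block, a fold minimum of 1.2 and leaving out each library.

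Whether replicate numbers pair libraries was checked by correlating deviations from group means over all genes tested. No experiment had every pair above 0.1, so calls are from the fit without the block. No pair of replicates differed by less than sampling noise (chi-square per gene 1.47 to 7.94 over 24 pairs). The highest values, 7.94 and 6.90, were those of shFOXRED1 replicate 3 against replicates 1 and 2. Those 2 replicates were at 2.16 from each other, and every other pair was at 4.98 or below. With 14299807 counts, shFOXRED1 replicate 3 was also the smallest library.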

Additional observations from a re-analysis of the deposited data

Results flagged for a closer look

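The members listed here were called in opposite directions in 2 experiments and their log2 fold changes differed by the test of the difference itself (edgeR adjusted p under 0.05). The experiments differ in more than the treatment (xenograft or culture, hours, library set), and the part of this was not tested.

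Between the xenografts and HA-TRIM15, FTH1 differed by -0.27 (SE 0.06, edgeR adjusted p = 0.00145) and FTL by 0.41 (SE 0.06, edgeR adjusted p = 1.24e-05), so the 2 chains of ferritin took opposite directions in each experiment and exchanged them. The xenograft calls of both were lost without HFD replicate 1 or 2, that of FTH1 also without ND replicate 3 and that of FTL without ND replicate 1 (highest edgeR adjusted p 0.105 for FTH1 and 0.132 for FTL).

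Between HA-TRIM15 and shYY2, the difference was 1.74 for SLC3A2, 1.17 for SLC39A14, 0.36 for ACSL4 and 0.33 for ACSL3, members that rose under HA-TRIM15 and fell under shYY2. It was -1.004 for GPX4, -0.88 for FTL, -0.61 for STEAP3, -0.49 for POR, the reductase that feeds lipid peroxidation, and -0.26 for NQO1, a quinone reductase, members that fell under HA-TRIM15 and rose under shYY2. The HA-TRIM15 calls of GPX4, ACSL3, ACSL4, POR and SLC39A14, and the shYY2 call of NQO1, were each lost in at least 1 fit that left out a library.

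Between shYY2 and shFOXRED1, the difference was 1.56 for TXNRD1 (SE 0.05, edgeR adjusted p = 1.02e-16) and 1.06 for MBOAT2 (SE 0.07, edgeR adjusted p = 4.67e-11), both higher with shYY2 and lower with shFOXRED1. It was -1.72 for SLC3A2 and -0.65 for KEAP1, both lower with shYY2 and higher with shFOXRED1. FOXRED1 itself was lower in both experiments (-0.89 log2 with shYY2 and -0.78 with shFOXRED1).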

How the results depend on the processing

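Of 147 recomputed counts of members, 138 stayed within 1.5 times the main count, and of 1366 recomputed log2 fold changes of named members and differences, 1287 kept direction and call, 71 lost the call, 7 gained it and 1 reversed, GPX4 in the xenografts, at 0.011 without HFD replicate 3 (-0.049 to 0.011 over the left-out libraries, called in none of these fits). With a fold change of at least 1.2 also required, members higher and lower were 11 and 1 in the xenografts (15.9% and 15.8% of all genes). With HA-TRIM15 they were 1 and 1 (4.64% and 2.99%). Members higher with shYY2 were then 9 (31.1%), and members lower with shFOXRED1 were 7 (15.5%). The main counts of the other directions, 16 lower with shYY2 and 12 higher with shFOXRED1, changed by less than 1.5 times. Of all genes, 32.2% were then lower with shYY2 and 14% higher with shFOXRED1. Leaving out each library in turn gave 4 to 10 members lower with HA-TRIM15, the lowest without HA-TRIM15 replicate 2, EV replicate 1 or EV replicate 3. The call of NQO1 with shYY2 was lost whichever of the 6 libraries was left out, and DESeq2 did not call SLC40A1 or HMOX1 with shFOXRED1. Of 64 recomputed medians of defence and promoting members, 8 moved by more than their spread, all on leaving out a library: the defence median in the xenografts ran from 0.17 to 0.21 log2 and with shFOXRED1 from -0.08 to -0.01, and the promoting median ran from -0.02 to 0.03 with HA-TRIM15 and from -0.05 to 0.008 with shFOXRED1. Scaling by DESeq2 size factors moved the median of all genes by at most 0.01 log2. Small changes are the least certain at these depths.

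The replicate block changed no count of members by over 1.5 times: members called were 29 (28 without it) in the xenografts, 16 (16) with HA-TRIM15, 33 (30) with shYY2 and 26 (23) with shFOXRED1. It added SRXN1 in the xenografts, GCLC, CISD1 and PCBP1 with shYY2, and SLC7A11, GPX4 and NCOA4 with shFOXRED1, and removed none. The labels and the methods give no reason for a pairing. The check of pairing was computed in 11 versions (all genes or a minimum mean of 1, 5, 10 or 50 CPM, Pearson or Spearman, and another log scale), most of them after the blocked calls had been seen. With shFOXRED1 the check over all genes gave 0.01 to 0.08, below the limit of 0.1. In 6 of the 11 versions, those with a minimum of 5 CPM or more, every pair was above it. By Pearson the pairs were at 0.12 to 0.32 with a minimum of 5 CPM and at 0.32 to 0.65 with a minimum of 50 CPM. SLC7A11 and GPX4 were above 50 CPM in every library of this experiment. In the other experiments no version did. Whether the numbers pair the shFOXRED1 libraries therefore depends on this choice, and the blocked calls of SLC7A11, GPX4 and NCOA4 are given as alternatives.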
